A study of Saccharomyces cerevisiae with 24 samples.

Results

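The genes described here are 6 regulators of Start in budding yeast, the commitment to a new round of division in late G1. They are CLN3 (YAL040C), SWI4 (YER111C), FAR1 (YJL157C), SWI6 (YLR182W), MBP1 (YDL056W) and WHI5 (YOR083W), chosen by their identifiers from the 7126 genes listed for each sample. RNA levels were measured by RNA-seq in 24 samples of Saccharomyces cerevisiae, as 8 groups of 3 biological replicates, in strains altered in the homeodomain repressors Yhp1 and Yox1. Values are TPM, a level scaled for gene length and to the same total in every sample.

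The samples form 2 sets of 12, each with its own wild type samples of 1 and the same strain. All 24 samples came from MATa cells of the BY4741 background, ura3Δ0 leu2Δ0, with his3Δ0 in the labels but his3Δ1 in the study's strain list, growing asynchronously in the rich medium YM-1, in which dextrose was at 2%. All were also met15Δ0 except the yhp1Δ strain, which was lys2Δ0. The wild type carried epitope tags on both repressors, YOX1-3V5-KanMx and YHP1-13MYC-LEU2. The phosphomutant set added a strain with yox1-9A-3V5-KanMx, one with yhp1-13A-13MYC-LEU2, and one with both alleles, in which alanines replace the sites that the cyclin-dependent kinase Cdk1 phosphorylates. The deletion set added yhp1Δ::LEU2, yox1Δ::KanMX, and a strain with yox1Δ::NatMX and yhp1Δ::LEU2. In each single mutant the other repressor gene had no tag, and each group was 1 strain. Differences in tags and markers therefore cannot be told apart from the alleles themselves.

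Start begins when the G1 cyclin Cln3 activates Cdk1, which relieves the repressor Whi5 from the transcription factor SBF, a complex of the DNA-binding protein Swi4 and its partner Swi6. A related complex, MBF, pairs Swi6 with the DNA-binding protein Mbp1, and together both factors switch on the late G1 cyclins and the genes of DNA synthesis. Far1 inhibits Cln-bound Cdk1 when mating pheromone arrests cells in G1. CLN3 and SWI4 peak at the boundary of M phase and G1, when Mcm1 activates them through an early cell cycle box, a site next to which Yhp1 and Yox1 bind and repress.

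Stretches of promoter are shown for the members that hold a match to the core of such a box. It is the Mcm1 site next to which the altered repressors are known to bind. The core was searched as TTNCC and GGNAA with 6 bases of any kind between them, on both strands of the 1200 bases before the start codon, in the RefSeq copy of the R64 genome. It matched in 239 of 5996 genes (3.99%), among them 3 of the 6 members. CLN3 had 2 matches, which ended 941 and 889 bases before the start codon. SWI4 had 1, at 437 bases, and FAR1 had 1, at 400 bases. SWI6, MBP1 and WHI5 had 0 matches. The windows below lie on the minus strand, as the genes do, and run 5′ to 3′, with chrI:68391-68490 for CLN3, chrV:386297-386396 for SWI4 and chrX:126699-126758 for FAR1. Capitals mark the box cores and, in SWI4, also 3 other cores, named after the sequences.
CLN3: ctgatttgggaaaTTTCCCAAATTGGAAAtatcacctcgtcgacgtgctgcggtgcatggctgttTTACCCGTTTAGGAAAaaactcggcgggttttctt
SWI4: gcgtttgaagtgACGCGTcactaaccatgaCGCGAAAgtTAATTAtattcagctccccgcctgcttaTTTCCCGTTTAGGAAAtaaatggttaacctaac
FAR1: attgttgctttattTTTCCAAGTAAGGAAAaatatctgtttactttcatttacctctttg
The SWI4 window was the one of the 3 that also held TAATTA, a core that homeodomain proteins bind. The same window held ACGCGT, the core of the MBF site, and CNCGAAA, the core of the SBF site. Over the full 1200 bases, not a window of this size, 41.4% of genes matched TAATTA, 9.26% ACGCGT and 38.2% CNCGAAA. Outside its window SWI4 matched CNCGAAA again, at 263 bases. The marked matches did not overlap each other in these windows. MBP1 matched TAATTA at 479 bases and CNCGAAA at 784 and 612 bases. Only 456 bases separate MBP1 from the upstream gene YDL057W, so these matches lie beyond the region between the genes. A match is a run of letters and no evidence of binding.

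In R64, CLN3 lies at chrI:65778-67520 (minus strand, coding length 1743 bases), SWI4 at chrV:382595-385876 (minus, 3282 bases) and FAR1 at chrX:123836-126328 (minus, 2493 bases). SWI6 lies at chrXII:517940-520351 (plus, 2412 bases), MBP1 at chrIV:352877-355378 (plus, 2502 bases) and WHI5 at chrXV:479533-480420 (plus, 888 bases). Values are for whole genes. RefSeq annotated 0 genes that overlap them, but the open reading frame YOR082C, which the tables list, covers 105 bases of WHI5 (11.8%). YOR082C itself was at 0 to 0.818 TPM.

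Depth was even, with 16967873 to 18255340 fragments a sample in the phosphomutant set and 18123679 to 18867894 in the deletion set. In yhp1Δ, YHP1 was at 0 TPM in each sample, and in the double deletion it was at 0 to 0.0424 TPM. YOX1 was at 0.563 to 0.998 TPM in yox1Δ and 1.39 to 1.81 TPM in the double deletion, against 85.9 to 108 TPM in the wild type of that set. YOX1 was also lower where it had no tag, at 34.0 to 38.4 TPM in yhp1-13A and 38.6 to 48.7 TPM in yhp1Δ. YHP1 without a tag was not lower. It was at 27.9 to 32.6 TPM in yox1-9A, within the wild type range of 23.1 to 36.8 TPM. In yox1Δ it was at 43.8 to 80.1 TPM, above the 30.8 to 37.2 TPM of wild type. The part of the tag in these levels was not tested. The MATa genes STE2, MFA1, MFA2 and BAR1 were at or above 559, 2113, 3487 and 74.7 TPM. Of the MATalpha genes, MF(ALPHA)1 and STE3 were at or below 2.44 and 4.22 TPM. MF(ALPHA)2 was at 6.66 to 16.9 TPM and SAG1 at 17.0 to 26.8 TPM.

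The 6 regulators spanned a wide range of levels, and their order by mean TPM was the same in both sets. CLN3 stood highest, with a mean of 115 TPM over the phosphomutant set and 140.1 TPM over the deletion set, at the 80.1st and 83.1st percentile of the genes tested. FAR1 followed with 76.6 and 60.3 TPM. SWI6, the subunit that SBF and MBF share, had 30.4 and 29.0 TPM. MBP1 had 18.5 and 23.3 TPM, and SWI4 had 10.97 and 11.8 TPM. WHI5 was the lowest with 2.07 and 3.41 TPM, from 30 to 79 fragments a sample, so its values carried the largest counting error. MBP1 and SWI6 overlapped in range in both sets, and MBP1 and SWI4 overlapped in the phosphomutant set. CLN3 and FAR1 overlapped in the phosphomutant set but not in the deletion set.

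**Figure D1:**
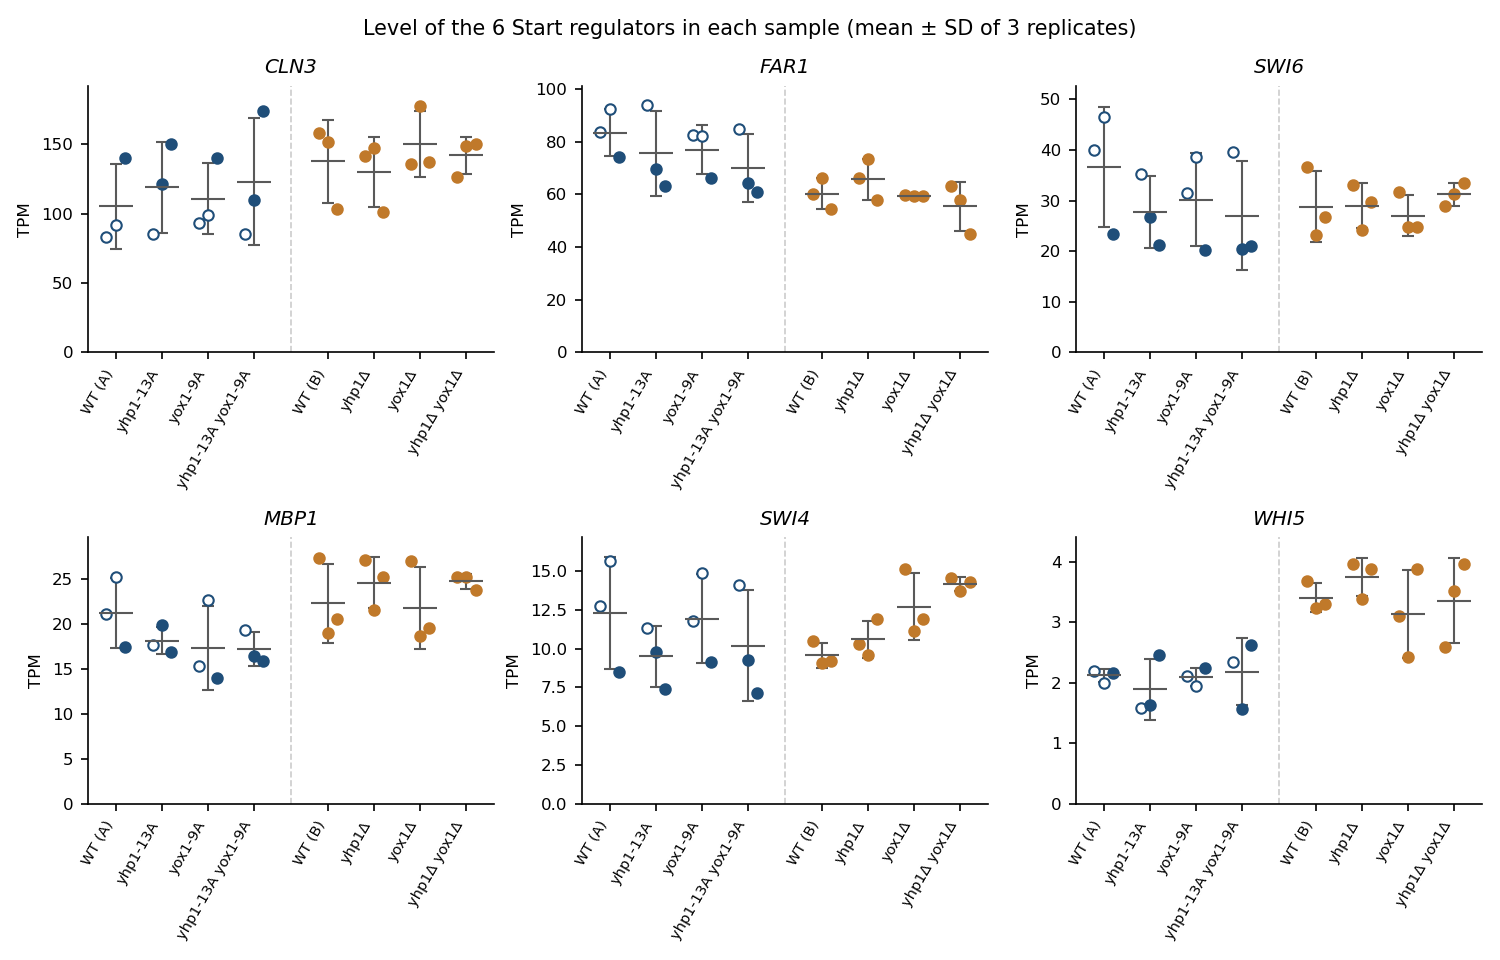
TPM of each Start regulator (vertical axis, starting at 0) in every sample of the 8 groups, with bars for the mean and SD of 3 replicates. Blue points are the phosphomutant set with its wild type, WT (A), and orange points the deletion set with WT (B), and open blue points are the samples on the minus side of the first residual component. CLN3 ranged from 83.4 to 174 TPM in the phosphomutant set, with each open point below each filled blue point.

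The same wild type strain gave different levels in both sets for some members. The phosphomutant set's wild type had FAR1 at 83.9, 92.3 and 74.4 TPM, while that of the deletion set had it at 60.2, 66.2 and 54.6 TPM. WHI5 was at 2.20, 2.01 and 2.17 TPM in the first and at 3.68, 3.24 and 3.30 TPM in the second. These ranges did not overlap, and since the strain was the same, each mutant was compared only with the wild type of its own set. The share of all genes whose wild type ranges did not overlap between the sets was not counted. The tables were scaled apart, and the sets were not tested against each other.

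Within the phosphomutant set, 4 of the 6 regulators split into low and high samples that cut across the genotypes. The first component of the residuals, taken over all tested genes after the group means were removed, held 63.3% of the residual variance in this set and 43.9% in the deletion set. It placed 6 samples of the phosphomutant set on each side. The minus side held wild type replicates 1 and 2, yhp1-13A replicate 1, yox1-9A replicates 1 and 2, and double mutant replicate 1. In the same 6 samples, levels relative to the mean of all samples fell with the GC content of genes, and in the other 6 they rose with it. The summed level of 7 genes of G2 and M phase differed between the sides too. It was 364 to 403 TPM on the minus side and 249 to 297 TPM on the plus side. That of 7 daughter and early G1 genes overlapped, at 1972 to 2663 TPM and 2635 to 3632 TPM. Genes of both lists entered the component as well. The part of GC content, of RNA handling or of the share of cells in each phase in the members' values was not tested.

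CLN3 was at 83.4 to 99.4 TPM on the minus side and at 110.2 to 174 TPM on the plus side. FAR1, SWI4 and SWI6 shifted the opposite way. FAR1 was at 82.1 to 93.9 TPM on the minus side and 61.0 to 74.4 TPM on the plus side. SWI4 was at 11.3 to 15.6 TPM and 7.15 to 9.78 TPM, and SWI6 at 31.5 to 46.4 TPM and 20.3 to 26.8 TPM. For these 4 genes the sides did not overlap, whatever the genotype, and since each gene entered the component this is a description. How large a share of all tested genes split in this way was not counted. The split therefore cannot be read as particular to these genes. MBP1, at 15.4 to 25.2 TPM and 14.01 to 19.8 TPM, and WHI5, at 1.58 to 2.35 TPM and 1.57 to 2.63 TPM, overlapped between the sides. In the deletion set the sides of its own component overlapped for CLN3 (127 to 178 TPM against 102 to 158 TPM), SWI4 and FAR1.

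**Figure D2:**
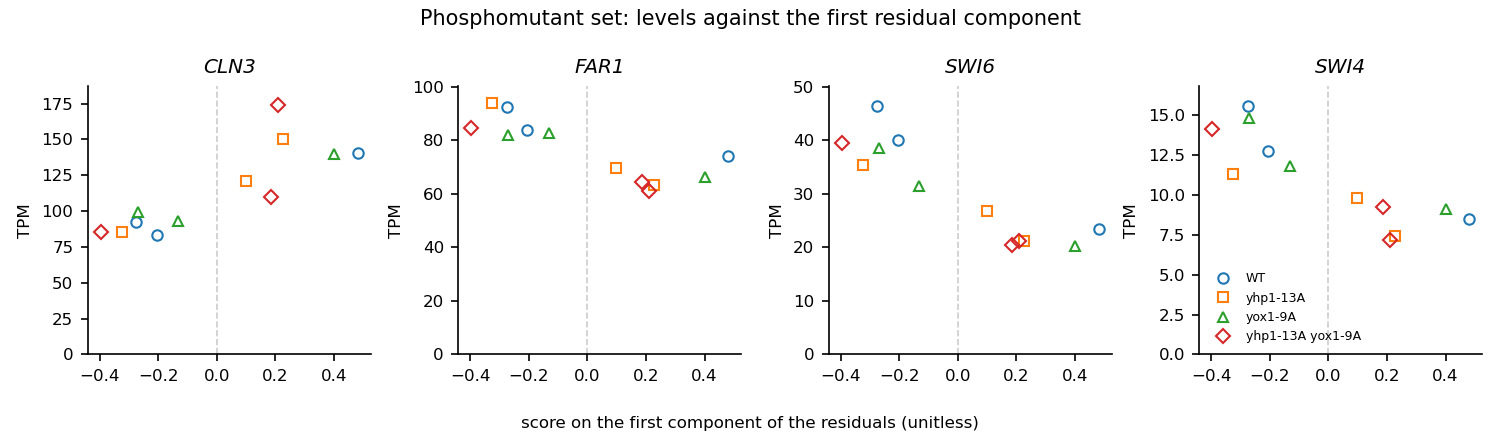
TPM of CLN3, FAR1, SWI6 and SWI4 (vertical axes, starting at 0) against the score on the first residual component (horizontal axis, unitless) in the 12 samples of the phosphomutant set, with 1 symbol per genotype. Samples left of the dashed line hold 83.4 to 99.4 TPM of CLN3 and those right of it 110.2 to 174 TPM, and each genotype has samples on both sides.

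The phosphomutant strains address whether repressors that Cdk1 cannot phosphorylate lower the RNA of their target genes. A gene was called where the adjusted p of limma's test on log2(TPM + 1) was below 0.1, over the 6316 genes tested in this set. In yhp1-13A, 0 of the 6 regulators were called, where 0% of all genes were. In yox1-9A, 0 were called, where 0.285% of all genes were. With both alleles, 0 were called, where 0.0158% were. At an unadjusted p below 0.05, 0 members passed in this fit of the 3 comparisons either, where 1.06%, 3.82% and 2.64% of all genes did. That count depended on the setting. Over the other settings, 1 of which was chosen after seeing the data, the lowest unadjusted limma p in the double mutant was 0.040 for FAR1 and 0.042 for SWI6. In yox1-9A it was 0.039 for MBP1 and 0.048 for SWI6. The share of all genes passing there was not counted. Groups overlapped for each member in each of the 3 comparisons, where 3.36%, 7.55% and 4.51% of genes did not overlap.

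CLN3 in the double phosphomutant was at 85.5, 110.2 and 174 TPM, against 83.4, 92.1 and 140.3 TPM in wild type. In yhp1-13A it was at 85.4, 121 and 151 TPM, and in yox1-9A at 93.1, 99.4 and 139.9 TPM. Each group spanned low and high values. The log2 difference from wild type was 0.20 (95% interval −0.44 to 0.84) in the double mutant, 0.18 in yhp1-13A and 0.09 in yox1-9A, each with an SE of 0.29. Within the minus side (1 sample against 2) the double mutant and yhp1-13A each differed from wild type by −0.04. Within the plus side (2 against 1) they differed by −0.02 and −0.05. The samples of the plus side were not alike. Wild type lay at 0.48 on the component, the double mutant at 0.19 and 0.21, and yhp1-13A at 0.10 and 0.23. With the sign of the component as a term, the differences from wild type turned direction, to −0.014 in the double mutant and −0.038 in yhp1-13A. With a replicate block instead, they stayed at 0.20 and 0.18, each with an SE of 0.10 (limma adjusted p = 0.43 and 0.62).

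SWI4 was at 12.7, 15.6 and 8.48 TPM in wild type and at 14.1, 9.26 and 7.15 TPM in the double phosphomutant. In yhp1-13A it was at 11.3, 9.78 and 7.40 TPM, and in yox1-9A at 11.8, 14.9 and 9.15 TPM. In each group the lowest value belonged to replicate 3, and each mutant overlapped wild type. The log2 difference was −0.26 (95% interval −0.86 to 0.34) in the double mutant, −0.32 in yhp1-13A and −0.02 in yox1-9A, with an SE of 0.28. Within the minus side the double mutant differed from wild type by 0.00059 (1 sample against 2), and within the plus side by −0.05 (2 against 1). The values for yhp1-13A were −0.29 and 0.0065. With 1 sample left out, SWI4 in the double mutant ranged from −0.50 (without its replicate 1) to −0.05 (without its replicate 3), and in yhp1-13A from −0.54 (without WT replicate 3) to −0.14 (without WT replicate 2).

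FAR1 was at 84.7, 64.4 and 61.0 TPM in the double phosphomutant, against 83.9, 92.3 and 74.4 TPM in wild type. It was at 93.9, 69.8 and 63.2 TPM in yhp1-13A and at 82.8, 82.1 and 66.2 TPM in yox1-9A. The double mutant had the lowest mean of the set, 70.1 ± 12.8 TPM (SD, n = 3), but its first sample lay within the wild type range. The log2 difference was −0.26 (SE 0.18, limma adjusted p = 0.83), and it was −0.05 within the minus side and −0.24 within the plus side. The median of all genes in the same comparison was −0.12.

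The partner subunits and the repressor did not pass either. SWI6 differed from wild type by −0.43 in the double phosphomutant (95% interval −1.15 to 0.28), which was the largest difference among the members, and by −0.12 and −0.16 within the sides. With 1 sample left out it ranged from −0.73 (without double mutant replicate 1) to −0.24 (without WT replicate 2). MBP1 differed by −0.27 (SE 0.19) in the double mutant and −0.29 in yox1-9A. WHI5 differed by 0.01 (SE 0.20). Against yhp1-13A the double mutant had 0 members called, where 0% of genes were, and against yox1-9A 0 called, where 0.348% were. The interaction of the 2 alleles was called for 0 members, where 0.0317% of genes were.

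**Figure D3:**
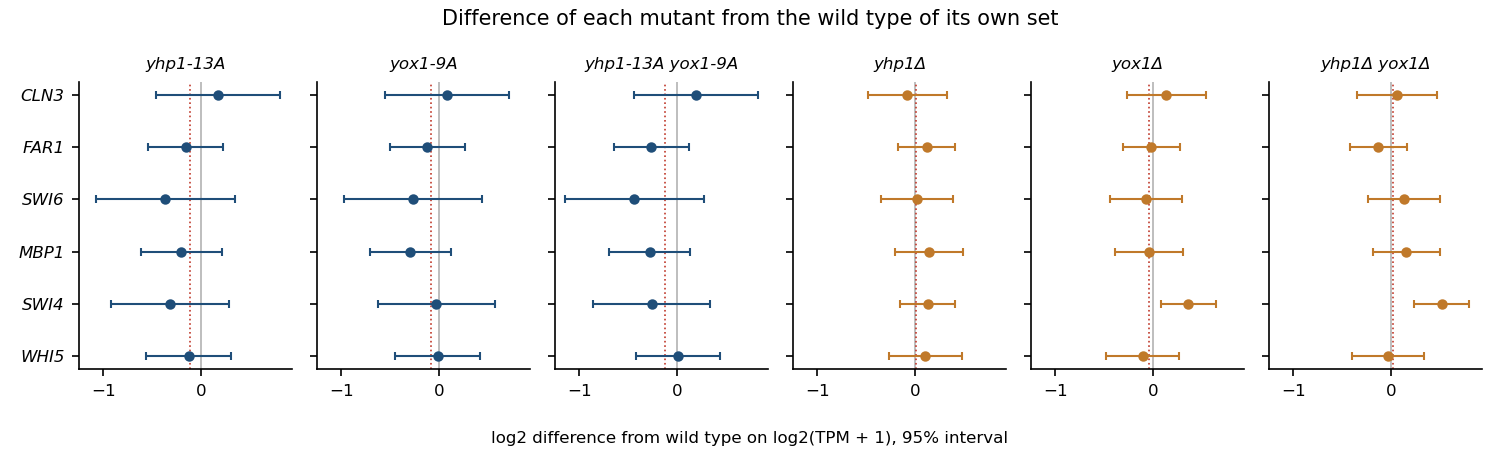
Log2 difference of each mutant from the wild type of its own set (horizontal axis, on log2(TPM + 1)) for the 6 members (vertical axis), with 95% intervals from limma. The grey line marks 0 and the dotted red line the median of all tested genes. SWI4 in yox1Δ (0.37) and in the double deletion (0.52) are the values whose interval does not include 0.

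The deletion strains address the reverse question, whether loss of the repressors raises the RNA of the same genes. With the same rule over 6311 tested genes, 0 members were called in yhp1Δ, where 0.127% of genes were, 0 in yox1Δ, where 0.364% were, and 0 in the double deletion, where 0.634% were. SWI4 passed an unadjusted p of 0.05 in yox1Δ and in the double deletion, as the 1 member of 6, where 4.02% and 3.71% of all genes did. No member passed it in yhp1Δ, where 1.2% did.

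SWI4, the DNA-binding subunit of SBF, was at 10.5, 9.05 and 9.18 TPM in wild type and at 14.6, 13.7 and 14.3 TPM in yhp1Δ yox1Δ. It was at 15.1, 11.1 and 11.9 TPM in yox1Δ and at 10.3, 9.57 and 11.9 TPM in yhp1Δ. All 3 double deletion samples and all 3 yox1Δ samples were above all 3 wild type samples, while yhp1Δ overlapped wild type. Samples were all above wild type for 4.8% of tested genes in the double deletion and for 3.15% in yox1Δ. An exact permutation test of 3 against 3 samples cannot give a p below 0.1.

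The log2 difference of SWI4 was 0.52 (SE 0.13, 95% interval 0.24 to 0.80) in the double deletion, a 1.44-fold higher level on the scale of log2(TPM + 1). Its unadjusted p was 0.00158 and its adjusted p in limma was 0.22, at rank 46 of 6311 genes by p. In yox1Δ the difference was 0.37 (SE 0.13, limma adjusted p = 0.87), and without yox1Δ replicate 1, the sample with 15.1 TPM, it was 0.24. In yhp1Δ it was 0.13 (95% interval −0.15 to 0.41). The double deletion exceeded yhp1Δ by 0.39 (95% interval 0.11 to 0.67, limma adjusted p = 0.59) and yox1Δ by 0.16 (95% interval −0.12 to 0.44). In these 2 comparisons 0 members were called, where 0.539% and 0.57% of genes were. The interaction was 0.03 (SE 0.18), with 0 members called where 0.19% of genes were.

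Across 11 ways of processing, the SWI4 difference of the double deletion stayed between 0.50 and 0.58 and the limma adjusted p between 0.061 and 0.24. SWI4 was called when the sign of the first residual component was a term of the fit (adjusted p = 0.061) and, in limma-voom on recovered fragments with a replicate block, chosen after seeing the data (adjusted p = 0.068). The double deletion samples lay next to 0 on that component, between −0.033 and 0.038, while the other samples lay at 0.20 or more from 0 on either side. Their sign was therefore poorly set, and the call with that term does not compare like samples.

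In asynchronous cultures a change in the RNA per cell and a change in the share of cells in the phase that makes it cannot be told apart. Phase markers are therefore given beside SWI4. The summed level of 7 genes of G2 and M phase was 275 to 319 TPM in wild type and 282 to 312 TPM in the double deletion. That of 7 daughter and early G1 genes was 2329 to 3705 TPM and 2560 to 2907 TPM. Both ranges overlapped, 0 genes of either list were called or at 0, and their medians were −0.06 and −0.13 against 0.03 for all genes. Their part in the SWI4 level was not tested.

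SWI4 was also compared with its relatives within each sample, as a description without a test, since the ratio was chosen after its values were seen. SWI4 stood at 0.385, 0.475 and 0.447 of the TPM of MBP1 in wild type and at 0.381, 0.445 and 0.472 in yhp1Δ. In yox1Δ the ratio was 0.560, 0.594 and 0.607, and in the double deletion 0.578, 0.543 and 0.600. The samples with an intact YOX1 were all below those without it. Relative to SWI6, its own partner, SWI4 was at 0.286 to 0.391 in wild type, 0.313 to 0.401 in yhp1Δ, 0.450 to 0.479 in yox1Δ and 0.426 to 0.502 in the double deletion, with the same separation. In the phosphomutant set the ratio to MBP1 was 0.487 to 0.619 in wild type, 0.437 to 0.640 in yhp1-13A, 0.653 to 0.768 in yox1-9A and 0.450 to 0.729 in the double mutant. Here yox1-9A lay above wild type, and the double mutant overlapped both. In yox1-9A the log2 difference from wild type was −0.29 for MBP1 and −0.02 for SWI4. The ratio to SWI6 was 0.318 to 0.362 in wild type and 0.321 to 0.365 in yhp1-13A. It was 0.374 to 0.450 in yox1-9A and 0.339 to 0.452 in the double mutant. How often ratios of other gene pairs separate in these ways was not counted.

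**Figure D4:**
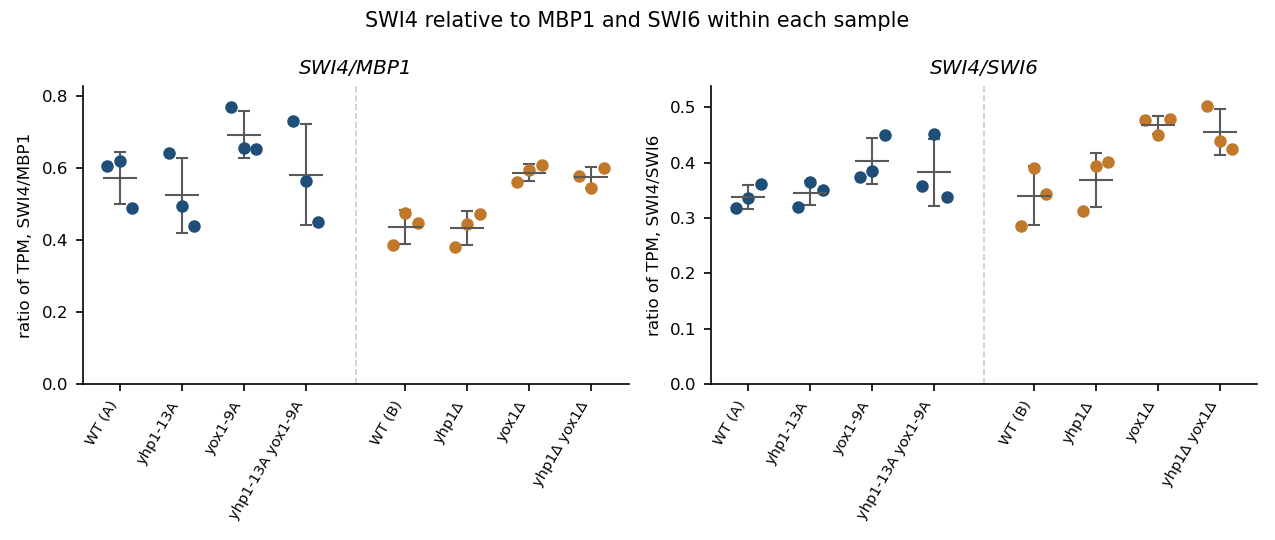
Ratio of SWI4 to MBP1 (left) and to SWI6 (right) in TPM (vertical axes, starting at 0) for each sample of the 8 groups, with bars for the mean and SD of 3 replicates. In the deletion set SWI4 to MBP1 is 0.381 to 0.475 in wild type and yhp1Δ and 0.543 to 0.607 in yox1Δ and the double deletion.

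CLN3, which has 2 box cores in the window searched, did not differ in the same way. It was at 158, 151 and 103 TPM in wild type and at 127, 149 and 151 TPM in the double deletion. In yox1Δ it was at 136, 178 and 137 TPM, and in yhp1Δ at 141, 148 and 102 TPM. Each mutant overlapped wild type. The log2 difference was 0.06 in the double deletion (95% interval −0.34 to 0.47), 0.14 in yox1Δ and −0.08 in yhp1Δ, each with an SE of 0.19. A difference as large as that of SWI4, 0.52, lay outside the interval for the double deletion, though whether CLN3 and SWI4 differ from each other was not tested.

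FAR1 was at 60.2, 66.2 and 54.6 TPM in wild type, 66.1, 73.4 and 57.9 TPM in yhp1Δ, and 59.9, 59.4 and 59.4 TPM in yox1Δ. With both genes deleted it was at 63.2, 58.1 and 45.1 TPM. All groups overlapped wild type, and the third double deletion sample was the lowest of the set. The log2 difference in the double deletion was −0.13 (SE 0.13, 95% interval −0.42 to 0.16), and without that sample it was 0.01. In yhp1Δ it was 0.12 and in yox1Δ −0.01.

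SWI6, MBP1 and WHI5, which matched no box core, overlapped wild type in all 3 deletion strains. SWI6 differed from wild type by 0.14 (SE 0.17) and MBP1 by 0.16 (SE 0.16) in the double deletion. Wild type replicate 1 had the highest SWI6 of the set, 36.7 TPM, and the highest MBP1, 27.3 TPM. WHI5 differed by −0.03 (95% interval −0.40 to 0.34), with 2.59, 3.51 and 3.96 TPM against 3.68, 3.24 and 3.30 TPM. The intervals still allowed a difference of about the size seen for SWI4 for SWI6 and MBP1, whose upper bounds were both 0.51.

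Genes that act with or after the 6 regulators were read from lists, each described by its counts and its median. The 14 other Start regulators had 1 gene called in the double deletion and 1 in yox1Δ, where 0.634% and 0.364% of all genes were. In both cases it was MSA2, an activator that binds SBF and MBF promoters with Swi6. MSA2 was at 25.0, 26.5 and 26.3 TPM in wild type and at 49.4, 47.8 and 44.3 TPM in the double deletion. In yox1Δ it was at 72.5, 50.2 and 48.8 TPM, and in yhp1Δ at 25.3, 27.2 and 28.5 TPM. Both strains without YOX1 lay above the other groups. Against wild type the difference was 0.84 (SE 0.14, limma adjusted p = 0.016) in the double deletion and 1.09 (adjusted p = 0.0034) in yox1Δ. Its paralog MSA1 was at 49.2, 50.8 and 37.7 TPM in wild type and at 72.9, 72.3 and 68.0 TPM in the double deletion (0.63, adjusted p = 0.16). Without double deletion replicate 1, or without replicate 2, 0 genes of the list were called. The median of the list was 0.11, against 0.03 for all genes. In the double phosphomutant 0 were called, where 0.0158% of all genes were. There the median of the list was −0.03 against −0.12, and MSA2 differed by 0.34 (limma adjusted p = 0.83).

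The 18 targets of SBF and MBF, among them the G1 cyclins CLN1 and CLN2 and the S phase cyclins CLB5 and CLB6, had 0 genes called in either double mutant. Of all genes, 0.634% were called in the double deletion and 0.0158% in the double phosphomutant. With both genes deleted 15 of 18 were higher than wild type and the median was 0.15, against 0.03 for all genes. PCL2, a G1 cyclin of the kinase Pho85, had the smallest p, at 64.3 ± 5.36 TPM against 44.8 ± 4.14 TPM (SD, n = 3), a difference of 0.51 (limma adjusted p = 0.70). CLN2 differed by −0.07 (SE 0.13). With both phosphomutant alleles 5 of 18 were higher and the median was −0.19, against −0.12. In yox1-9A 1 target was called, where 0.285% of all genes were. It was HCM1, an S phase activator, at 93.0, 84.9 and 97.0 TPM against 40.6, 42.0 and 53.6 TPM in wild type (1.01, SE 0.13, adjusted p = 0.0077). HCM1 in the double phosphomutant was at 45.5, 46.2 and 43.9 TPM, within the wild type range.

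The 7 replication-licensing genes are, like CLN3 and SWI4, known as targets of Mcm1 that peak as cells leave M phase, and they include the subunits of the MCM helicase. In the double deletion 5 of 7 were called, all higher, where 0.634% of all genes were called. The median of the 7 was 0.51, against 0.03 for all genes. MCM5 was at 34.2, 34.3 and 27.7 TPM in wild type and at 52.5, 52.8 and 55.0 TPM in the double deletion (0.73, SE 0.13, adjusted p = 0.030). MCM2 rose by 0.51, MCM3 by 0.50, MCM4 by 0.52 and MCM7 by 0.59. In yox1Δ MCM4 (0.53) and MCM7 (0.60) were called, where 0.364% of all genes were. MCM6 (0.37, adjusted p = 0.24) and CDC6 (0.26, adjusted p = 0.98) did not pass. SWI4 had a difference of the same size as MCM2 to MCM4, with a larger SE, 0.13 against 0.10 to 0.11. Left out one at a time, WT replicate 3 and each double deletion replicate lowered the count to 0, and WT replicate 2 lowered it to 1. In the double phosphomutant 0 of 7 were called and the median was −0.37 against −0.12, with MCM5 at 23.5, 19.2 and 20.7 TPM against 35.0, 34.9 and 31.5 TPM.

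**Figure D5:**
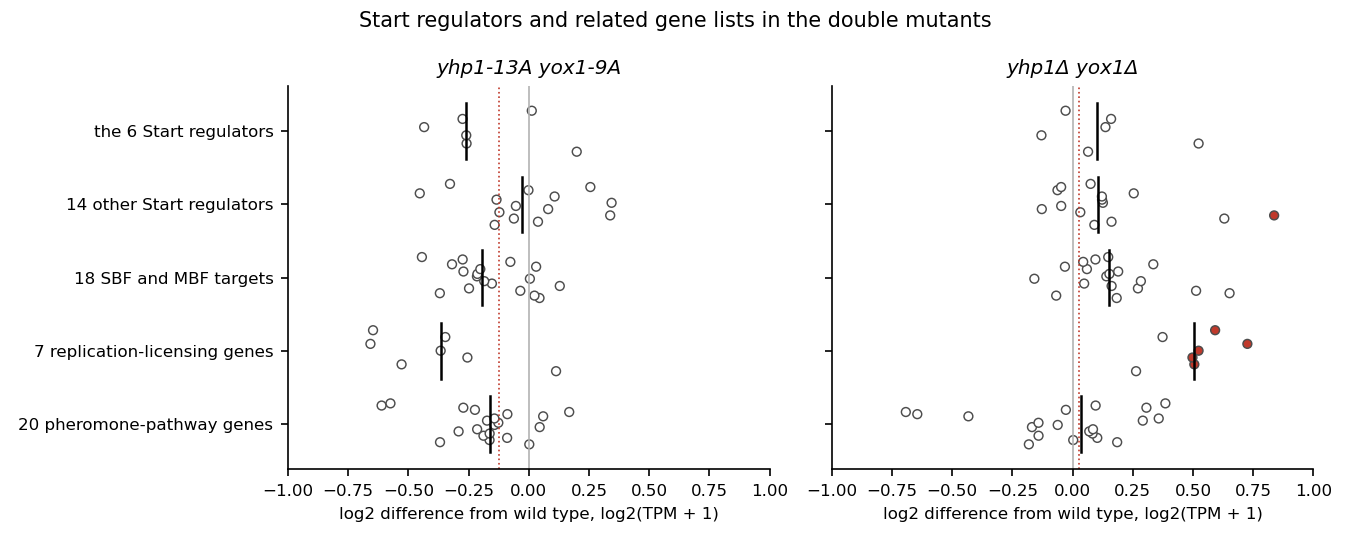
Log2 difference from wild type on log2(TPM + 1) (horizontal axis) of each gene of 5 lists (vertical axis) in the double phosphomutant (left) and the double deletion (right). Red points are called, black bars are list medians and the dotted red line is the median of all genes. In the double deletion MSA2 and 5 replication-licensing genes are called, and SWI4 (0.52) is the rightmost of the 6 members.

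The 20 genes of the pheromone response, the pathway that acts through Far1, had 0 genes called in either double mutant. The share over all genes was 0.634% in the double deletion and 0.0158% in the double phosphomutant. AGA1, an agglutinin subunit, differed in the double deletion by −0.69 (adjusted p = 0.20), FUS1, needed for cell fusion, by −0.64 (adjusted p = 0.22) and SST2, which desensitizes the pathway, by −0.43 (adjusted p = 0.64). BEM1, a polarity scaffold, differed by 0.31 (adjusted p = 0.79). The median of the list was 0.04 against 0.03 for all genes. The pheromone genes MFA1 and MFA2 differed by −0.61 and −0.57 in the double phosphomutant (limma adjusted p = 0.63 and 0.43). Against yhp1Δ, AGA1 fell by 0.93 in the double deletion (adjusted p = 0.031).

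The genes whose levels moved most like each member were found by Pearson's r over the 24 samples, each gene centred in its set, among 6275 genes tested in both sets. The samples share libraries and the residual components, so r is a description. For CLN3 they were SNA4 (0.90), PRM7 (0.90) and CIS3 (0.87), the last of which is the gene downstream of FAR1. For SWI4 they were GIN4 (0.95), a kinase of bud neck assembly, ASF1 (0.90), a histone chaperone, and MVB12 (0.90). For FAR1 they were YAL037C-A (0.90), NUP170 (0.85) and PCL9 (0.85), a G1 cyclin of Pho85 and one of the early G1 genes above. For SWI6 they were RAD24, POL4 and RSC58 (each 0.97), and for MBP1 UBP3, PIF1 and GLE1 (each 0.93). WHI5 had the lowest values, TAG1 (0.76), NEL1 (0.73) and CKI1 (0.68). The members themselves were left out of this search. Between members, r over the 24 samples was highest for SWI4 with SWI6 (0.80) and MBP1 with SWI6 (0.80).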

How the data were processed

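Poly-A RNA was purified according to the methods, while the labels speak of its depletion. The authors ran OneStopRNAseq, aligning paired reads to R64-1-1 with STAR 2.5.3a and counting exon fragments with featureCounts 1.5.2. The deposited TPM values, 1 table per set, keep replicates apart, and how counts became TPM is not given in the sources used here. Multiplied by gene length and divided by a step fitted to the values of each sample, 100% of values were whole fragments (tolerance 0.05).

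Tests ran on log2(TPM + 1) in each set for genes whose TPM averaged 1 or more across its 12 samples, with its 4 groups in one fit, in limma 3.58.1 (eBayes with trend, R 4.3.3). P-values were two-sided, with the Benjamini-Hochberg adjustment across the genes of a fit and the study's threshold of 0.1. The fit was tested on simulated data. Of 7126 identifiers, 6048 matched RefSeq, 94.4% of them with the same length.

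The members and gene lists were chosen with earlier results of these data known. Named genes were the members, called genes of each list, otherwise up to 4 with the smallest p in a double mutant, and the 3 nearest by r. Genes named beyond this, CLN2, MCM6, CDC6, MSA1 and the list examples, were chosen after values were seen. Alternatives were a pseudocount of 0.1, no filter, a replicate block, a filter at a mean of 10, scaling by median of ratios, only the groups compared, no trend, an adjusted p of 0.05, limma-voom, a component term and samples left out. Same-numbered samples were checked by the correlation of their deviations from group means. Over 0.1 in each of 3 pairs, these were 0.48 to 0.75 for wild type with yhp1Δ, 0.52 to 0.83 for wild type with yox1-9A, 0.12 to 0.65 for yhp1-13A with yox1-9A and 0.43 to 0.72 for yhp1-13A with the double phosphomutant.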

Additional observations from a re-analysis of the deposited data

Results flagged for a closer look

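Of 65 genes of the member and related lists, 4 had all 3 double phosphomutant samples below all wild type samples of their set and all 3 double deletion samples above theirs. Of 6275 genes tested in both sets, 24 (0.382%) did so, and 35 (0.558%) were opposite in either order. The 4 genes were subunits of the MCM helicase, and 0 were Start regulators. MCM5 differed from wild type by −0.66 in the double phosphomutant and by 0.73 in the double deletion. MCM7 differed by −0.65 and 0.59, MCM4 by −0.37 and 0.52, and MCM3 by −0.25 and 0.50. The sets were scaled apart and the difference between them was not tested. SWI4 had −0.26 and 0.52, but its phosphomutant samples overlapped wild type.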

How the results depend on the processing

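Of 674 values of single genes over the alternatives, 208 of those with 1 sample left out kept direction and side of the threshold and 32 turned direction, and for the other settings these numbers were 420 and 11, with 3 newly called. Of 350 counts of calls, 323 stayed within 1.5 times the main count. The cause of the changes below was not tested.

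With the component term (its sign, added to the fit), 1 member, SWI4, was called in the double deletion against wild type (0.57) and 1 against yhp1Δ (0.44), and SWI4 was also called by limma-voom with the replicate block (0.58, 1 member), chosen after seeing the data. For double mutants against wild type, same-numbered samples did not all deviate together. In the phosphomutant set 2 of 3 pairs did (0.53 and 0.56) and replicate 2 did not (−0.24), and in the deletion set correlations were −0.09 to 0.03. There the replicate block alone called 0 members, with an adjusted p for SWI4 of 0.12 in the double deletion, and changed no member's call in the other comparisons.

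In the double deletion, called replication-licensing genes numbered 3 without a filter, 3 with median-of-ratios scaling, 1 with only the groups compared and 1 at an adjusted p of 0.05, against 5, and 0 to 4 with 1 sample left out. Called other Start regulators numbered 2 with the replicate block, limma-voom, the component term, or block and voom, against 1, and 0 to 1 with 1 sample left out. Called pheromone genes numbered 2 with the replicate block, 2 with the component term and 1 with block and voom, against 0, and 1 without WT replicate 1. In the double phosphomutant, called replication-licensing genes numbered 2 with the replicate block, 3 with the component term and 2 with block and voom, and called pheromone genes 1 with the replicate block and 1 with block and voom, against 0.

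Some differences turned direction. Median-of-ratios scaling gave 0.067 for SWI4 and 0.055 for WHI5 in yox1-9A and 0.021 for FAR1 in yox1Δ. The component term gave −0.038 for CLN3 in yhp1-13A (from 0.18), −0.014 for CLN3 (from 0.20) and −0.0062 for WHI5 in the double phosphomutant, 0.022 for SWI6 and 0.055 for MBP1 in yox1Δ, and 3.1e-05 for WHI5 in the double deletion. Limma-voom gave −0.0036 for SWI6 in yhp1Δ, and −0.0065 with the replicate block.

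With 1 sample left out, CLN3 ranged from −0.012 to 0.40 in yhp1-13A, −0.092 to 0.31 in yox1-9A, −0.079 to 0.43 in the double phosphomutant, −0.27 to 0.092 in yhp1Δ, −0.054 to 0.25 in yox1Δ and −0.13 to 0.18 in the double deletion. FAR1 ranged from −0.082 to 0.054 in yox1Δ and −0.23 to 0.011 in the double deletion. SWI6 ranged from −0.12 to 0.20 in yhp1Δ, −0.21 to 0.11 in yox1Δ and −0.0034 to 0.32 in the double deletion, and MBP1 from −0.19 to 0.11 in yox1Δ. WHI5 ranged from −0.045 to 0.025 in yox1-9A, −0.090 to 0.16 in the double phosphomutant, −0.23 to 0.024 in yox1Δ and −0.13 to 0.10 in the double deletion. SWI4 ranged from −0.25 to 0.16 in yox1-9A and −0.18 to 0.26 in the double phosphomutant against yhp1-13A, but 0.49 to 0.58 in the double deletion (adjusted p 0.19 to 0.77) and 0.24 to 0.45 in yox1Δ. With 3 samples a group, an SE of 0.13 to 0.33 limits what could be detected, and WHI5, at 30 to 79 fragments a sample, is limited by depth as well.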

Other observations

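Genes with a match to the box core shared by CLN3, SWI4 and FAR1 were read as a group after the matches had been counted, as a description without a test. In the double deletion 10 of 231 tested genes with a match were called, all higher, among 28 higher and 12 lower calls over all 6311 genes. At an unadjusted p below 0.05, 10.8% of them were higher, against 2.17% of all genes, and their median was 0.07 against 0.03. In yox1Δ 4 were called, all higher (PIG1, MCM7, ELO1 and PRY2), and 8.66% were higher at that p, against 2.58%. In the double phosphomutant 0 of 232 were called, and 6.03% were lower, against 2.22%. SWI4 belonged to the 10.8%, while CLN3 and FAR1 did not. Of the 106 tested genes that matched both the box core and TAATTA, 9.43% were higher at that p in the double deletion and 7.55% in yox1Δ.

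The 10 genes called in the double deletion were PIG1 (1.27), HST4 (0.83), YHL026C (0.82), YNL146C-A (0.79), PRY2 (0.75), MCM5 (0.73), UTH1 (0.71), MCM7 (0.59), MCM3 (0.50) and TIP1 (0.46). PIG1, a subunit that targets a phosphatase to glycogen synthesis, and MCM5 are neighbours on opposite strands that share the region between them.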
